A study of Homo sapiens with 3 samples.

Results

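The nuclear-encoded subunits of oxidative phosphorylation were taken by their symbols: the NDUF families A, B, C, S and V, UQCR, COX4 to COX8, ATP5, SDHA to SDHD and CYC1. The rule found 88 symbols of 18877 in the table, on 121 RefSeq transcripts of 29156. They were sorted into complex I (36 genes), complex II (4), complex III (10), complex IV (18) and complex V (16), with 4 more symbols that match the pattern without coding for a subunit. NDUFA4 was placed in complex IV, where its protein is now assigned.

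Oxidative phosphorylation passes electrons from NADH and succinate through complexes I to IV of the inner mitochondrial membrane. The resulting proton gradient is used to make ATP at complex V. Most subunits are encoded in the nucleus and imported, and a few are encoded by mitochondrial DNA, so building the chain needs both genomes. In dividing cells and tumour lines these genes belong to the abundant housekeeping messages, and a handful have second copies used mainly in muscle, heart, lung or testis.

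RNA sequencing was done on A2780, a line established from an undifferentiated tumour of the ovary. The comparison set cells that stably carry exogenous miR-181a (2 libraries, p181a #1 and p181a #2, called pool 1 and pool 2 here), against cells with the pBABE vector alone (1 library). The RNA protocol calls p181a #1 and p181a #2 polyclonal pools and the design text calls each a clone. A p-value here sets the difference between the pools and the lone vector library against the spread of the 2 pools, moderated across genes. That spread may be technical, and no p-value here measures how vector libraries vary. Values are the authors' coverage, the median depth over 50 bp windows along a transcript, so levels can be compared between genes of different length. No read counts come with the coverage, so depth is unknown and no counting interval can be given.

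Coverage summed to 907092 in pool 1, 719263 in pool 2 and 798228 in the vector library. Both pools listed 8822 transcripts at 0, of which the vector library covered 62.9%. Of 33 markers of ovarian carcinoma, epithelium, mesenchyme, fibroblasts, endothelium, immune cells and muscle, 18 were at 0 in both pools and 12 of these were above 0 in the vector library. The ovarian markers PAX8, WT1, MUC16, ESR1 and KRT7 were listed at 0 in both pools, and ESR1 had 104 in the vector library. Mesenchymal markers were divided: vimentin (VIM) had 2328 and 2007 in the pools and 1173 in the vector library. CDH2 was also higher, with 51.5 and 39.7, against 7.02. FN1 was at 0 in both pools and low in the vector library too, at 2.84. In sum the endothelial markers had 0 and 0.037 in the pools and 220 in the vector library. The fibroblast markers summed to 795 and 735, against 318, but they were divided too, with 3 higher and 1 lower in both pools. The lower one, COL1A1, had 0 and 0.706 in the pools, against 7.41 in the vector library. Transcripts of one symbol that were identical in both pools formed 1408 groups, and in 20.5% of these the vector values (coverage + 1) differed more than 2-fold. Of 492 groups identical in pool 2 and the vector library, 0 differed as much in pool 1. The part of this property of the vector library in the results below was not tested.

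The microRNA that the pools expressed is given first, with its seed in capitals (bases 2 to 8, RefSeq, GRCh38.p14; genes on chromosomes 1 and 9), because its seed match is what was looked for in the subunit genes.
hsa-miR-181a-5p: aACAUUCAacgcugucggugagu

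The complementary 7-mer TGAATGT was searched on the sense strand of the 3' untranslated region of 1 transcript per gene (GENCODE 44 on GRCh37). Of 80 tested genes of the set with such a region, 5 held it (6.25%), against 20.7% of 12368 tested genes with one. The regions of the set were short, with a median of 198 bases against 1229. Among regions of up to 953 bases, 0 of 60 genes of the set held the 7-mer, where 5.85% of 5281 tested genes did. Among longer regions 5 of 20 did (25%), where 31.8% of 7087 tested genes did. The 4 subunit genes with a match were NDUFA5, ATP5E, NDUFA9 and UQCRFS1, and the fifth, ATP5S, codes for no subunit. The sites of the 4 subunit genes are shown with the match in capitals, since these are places where the expressed seed could pair.
NDUFA5, chr7:123180265-123180293, minus strand: agactttaataTGAATGTcaggcactatc
NDUFA5, chr7:123178960-123178988, minus strand: aacaatgtttaTGAATGTatcttttttaa
ATP5E, chr20:57601341-57601369, minus strand: catttaaaacaTGAATGTtgttttgtgtt
NDUFA9, chr12:4796663-4796691, plus strand: atcccctaaccTGAATGTgtttacactga
UQCRFS1, chr19:29697563-29697591, minus strand: tgatgacacttTGAATGTtttttcctgtt

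None of these 4 passed the test in either direction. NDUFA5, an accessory subunit of complex I and the only one with 2 matches, had a coverage of 35.5 in pool 1 and 29.0 in pool 2, against 35.6 in the vector library. NDUFA9, another accessory subunit, had 57.3 and 51.6 in the pools and 45.6 in the vector library. UQCRFS1, the Rieske iron-sulfur protein of complex III, had 75.2 and 63.7, against 59.8. ATP5E, the epsilon subunit of the ATP synthase head, had 309 and 238, against 188. Their log2 differences of -0.14, 0.25, 0.21 and 0.53 spanned both signs. ATP5S, the other gene with a match, was lower in both pools, with 5.04 and 6.53, against 15.0. Its log2 difference was -1.24, and it did not pass the test. The searched regions run up to 9368 bases in the annotation, and which of them A2780 cells use was not analysed here.

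As a set, the oxidative phosphorylation genes had slightly more coverage in the miR-181a pools than in the vector library, by about as much as other genes of high coverage did. Of the 88 genes 81 were tested, and their median log2 difference, on the scale of log2(coverage + 1), was 0.36, with 0.50 in pool 1 and 0.20 in pool 2. The median was 0.07 over all 12552 genes tested and 0.39 over the 2186 tested genes with a mean coverage above 50, a class that holds 70 of the 81. Shifting each pool by the median log2 ratio of that class (0.55 in pool 1, 0.21 in pool 2) took the set's median to -0.02. In bulk RNA, fewer cells with a message and less of it per cell cannot be told apart. In 58 of the 81 genes both pools were above the vector library (71.6%), where 44.6% of all tested genes and 66.3% of those above 50 were. Both pools were below it in 10, where 41.8% of all tested genes and 19.5% of those above 50 were, and the pools fell on different sides of it in 13.

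**Figure D1:**
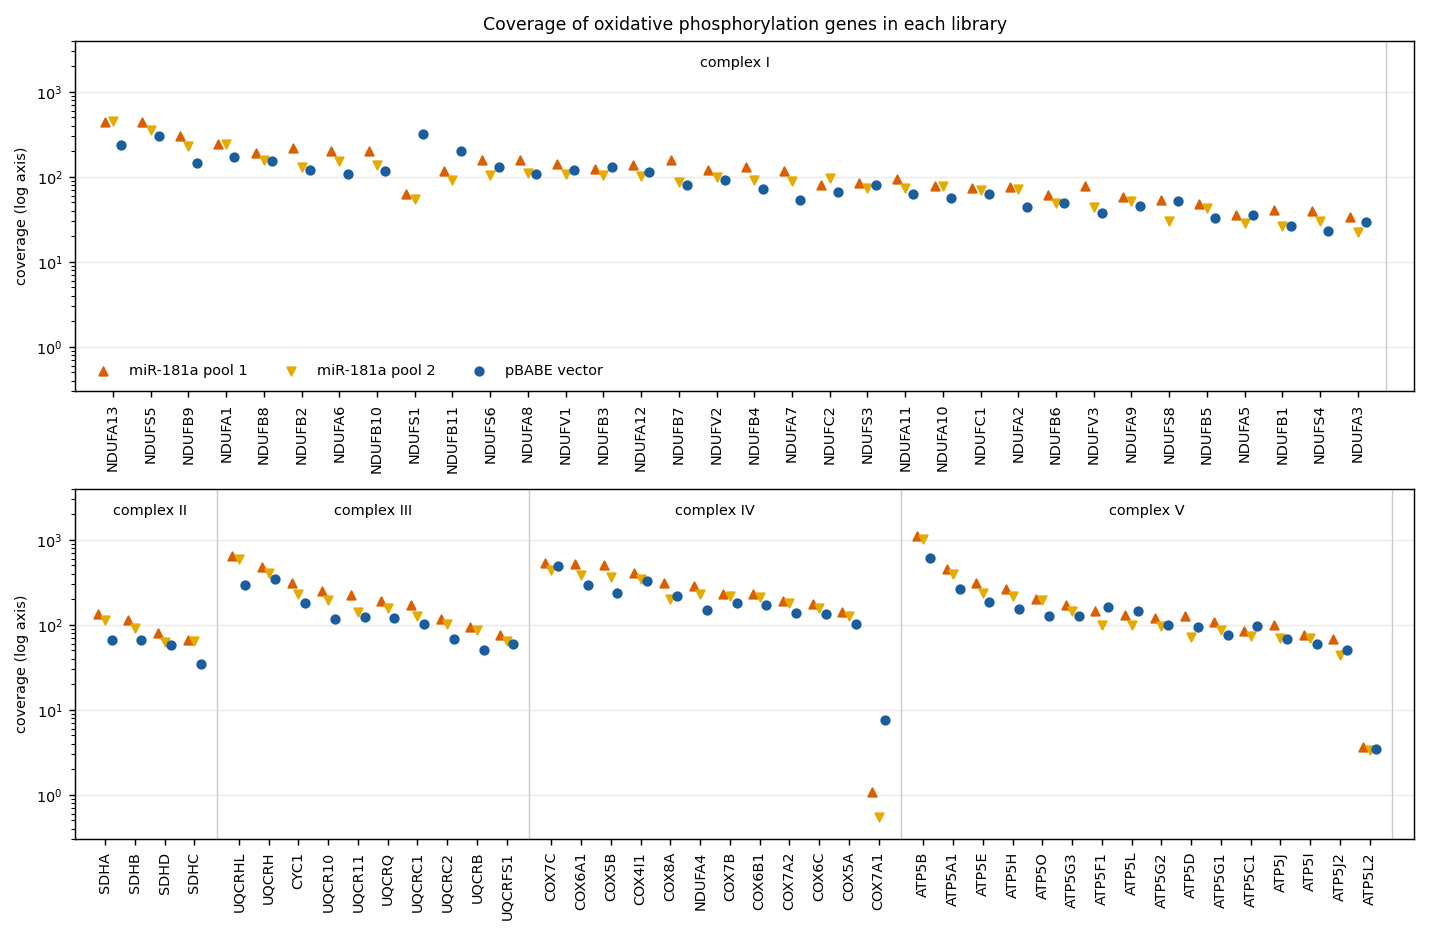
Coverage (vertical axis, log scale) of tested genes of complexes I to V, ordered by mean coverage within each complex, with triangles for miR-181a pool 1 and pool 2 and circles for the pBABE vector library, 1 library each. The vector circle lies below both triangles for all genes of complexes II and III, and far above them for NDUFS1 and COX7A1.

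Single genes rarely passed the test. By limma across all tested genes with Benjamini-Hochberg adjustment at 0.05, no gene of the set rose and 2 fell, NDUFS1 and COX7A1, where 1% of all tested genes rose and 21.7% fell. Among tested genes with a mean coverage above 50, 0.183% rose and 9.61% fell. The count of genes that rose differed between scalings, and the reason was not tested. With library medians set equal 68 rose and 5 fell, where 50.6% of all tested genes rose and 29.5% fell. With quantile normalization 29 rose and 3 fell, where 44.9% of all tested genes rose and 26.6% fell. After the shift by genes above 50, 11 rose and 14 fell, where 8.28% of all tested genes rose and 42.9% fell. At least 1 log2 unit separated both pools from the vector library in 3 genes, all lower in the pools (NDUFS1, COX7A1 and ATP5S). Over all 12552 tested genes, 318 were at least 1 log2 unit higher in both pools. The matching count of lower genes was not taken, though 41.8% were lower in both pools by any amount. The 25th percentile of the log2 difference over all tested genes was -1.48. A mean fall of at least 1 log2 unit is therefore not particular to the set.

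**Figure D2:**
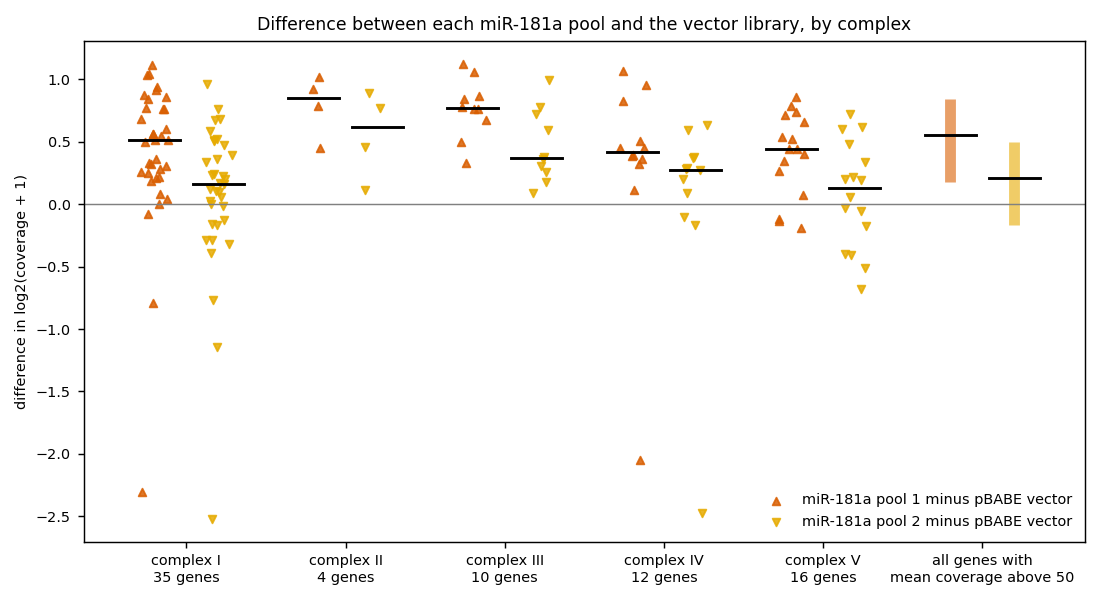
Difference in log2(coverage + 1) between each miR-181a pool and the vector library (vertical axis) for the tested genes of each complex, with triangles for genes and black lines for medians. Bars at the right span the 25th to 75th percentile of all tested genes with a mean coverage above 50, whose medians are 0.55 in pool 1 and 0.21 in pool 2; the medians of complexes II and III lie above these.

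Complex I, the NADH dehydrogenase, opens the chain and is its largest complex. Its 35 tested genes had a median log2 difference of 0.38 (0.51 in pool 1, 0.16 in pool 2), which was 0.0018 after the shift by genes above 50. Both pools were above the vector library in 24 and below it in 4. The accessory subunits, which surround the catalytic core, had a median of 0.39 over 29 genes (0.0081 after the shift), with 22 higher in both pools. The 6 core subunits tested had a median of 0.0032 (-0.38 after the shift), with 2 higher in both pools and 1 lower (NDUFS1), a split that was not tested.

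NDUFS1 fell in the pools by more than any other tested gene of the set on the log2(coverage + 1) scale. It codes for the largest core subunit, which carries iron-sulfur clusters of the NADH-oxidising arm (chromosome 2, 206979541 to 207024168 on GRCh37, minus strand, 19 exons). Its coverage was 63.0 in pool 1 and 54.3 in pool 2, against 316 in the vector library, so that the pools lay close together and the vector library was 5.39 times their mean. The NDUFS1 log2 difference was -2.41 (SE 0.21, n = 2 pools and 1 vector library, lower in 2 of 2 pools), and it passed limma with an adjusted p of 0.025. It also passed in each of the 11 alternatives with a test, with limma adjusted p from 1.31e-51 to 0.0473. The lowest came with the shift by genes above 50, where 42.9% of all tested genes fell. Every alternative used the same 2 pools and the same vector value, so these are not independent results. NDUFS1 stood at the 86.6th percentile of tested genes in pool 2 and at the 98.2nd in the vector library. Of 1190 tested genes with a pool mean from 50 to 100, 8 (0.672%) had a vector value over 4 times that mean, and NDUFS1 was the only one of the set's 20 genes in that range to do so. It has a single transcript in the table, so no second value was at hand.

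Of the other core subunits, NDUFV1, NDUFV2 and NDUFS3 lay close to the vector library, while pool 2 had 0.58 times the vector coverage of NDUFS8. NDUFV1, the flavoprotein that takes electrons from NADH, had 141 and 108, against 121, and its partner NDUFV2 had 120 and 99.5, against 92.9. NDUFS3 had 84.8 and 73.5, against 80.2, and NDUFS8 had 53.8 and 30.2, against 52.2. For NDUFV1, NDUFS3 and NDUFS8 the vector value lay between the pools. NDUFS7, another core subunit, had 28.7 and 18.3 in the pools and a blank cell for the vector library, so it entered no comparison.

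Accessory subunits covered a wide range of levels. NDUFA13, also known as GRIM-19, had the highest pool mean of complex I, with 444 and 460 in the pools and 235 in the vector library. It had a log2 difference of 0.94 (SE 0.20, limma adjusted p = 0.12), level with NDUFA7, which had 116 and 90.4 in the pools and 53.0 in the vector library (0.94). Both pools lay above the vector library for each, and neither passed the test. NDUFB9 had 300 and 234, against 145, NDUFA2 had 76.3 and 71.8, against 44.6, and NDUFA6 had 199 and 155, against 108. At the low end, NDUFA3 had 33.7 and 22.2, against 29.5. NDUFB3 was lower in both pools, with 123 and 106 against 130. Between NDUFA13 and NDUFA3, pool means spanned 16.2-fold.

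Most of the other accessory subunits were also higher in both pools. NDUFS5 had 447 and 357 in the pools and 305 in the vector library, and NDUFA1, an X-linked subunit, had 246 and 244, against 172, so the pools and the vector library did not overlap for either. NDUFB2 had 219 and 130, against 120, NDUFB10 had 200.5 and 138, against 117, and NDUFB7 had 156 and 88.0, against 80.7. In these 3 the vector library lay much nearer to pool 2 than to pool 1. NDUFS4, which is mutated in some families with Leigh syndrome, had 39.6 and 30.6, against 23.0 (log2 difference 0.58). NDUFB4, NDUFB5, NDUFB1, NDUFA8, NDUFA10, NDUFA11, NDUFB8, NDUFC1 and NDUFV3 were also higher in both pools, by 0.17 (NDUFB8) to 0.64 (NDUFV3) on the log2 scale. NDUFS6, NDUFA12 and NDUFB6 had the vector value between the pools, with log2 differences of -0.03, 0.06 and 0.16. NDUFC2 had whole values, 80.00 and 96.00 in the pools and 67.00 in the vector library, and was higher in pool 2 than in pool 1.

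NDUFB11, an X-linked accessory subunit of the membrane arm (chromosome X, 47001615 to 47004101 on GRCh37), showed how a choice of transcript can set a direction. The transcript used here, NM_019056, had 117 and 91.6 in the pools and 203 in the vector library, a log2 difference of -0.97 (limma adjusted p = 0.16, short of the threshold). Its other transcript, NM_001135998, had the same 117 and 91.6 in the pools but 91.0 in the vector library, a log2 difference of 0.18. The pools give both transcripts the same values and so cannot choose between them.

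**Figure D3:**
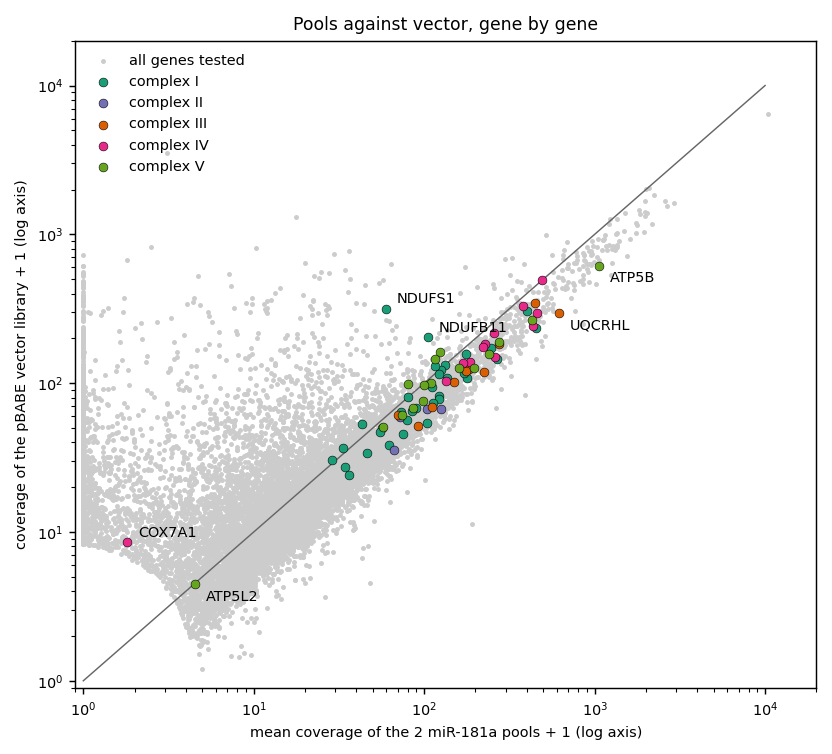
Coverage of the vector library (vertical axis) against the mean of the 2 miR-181a pools (horizontal axis), both plus 1 on log scales, for all tested genes in grey and the genes of complexes I to V in colour; the line marks equal coverage. Most coloured points lie just below the line, while NDUFS1, at 316 in the vector library, NDUFB11 and COX7A1 lie above it.

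Complex II, succinate dehydrogenase, links the citric acid cycle to the chain and is the only complex coded wholly in the nucleus. All 4 of its genes had higher coverage in both pools than in the vector library, with a median log2 difference of 0.76 that stayed above 0 at 0.38 after the shift by genes above 50. SDHA, the flavoprotein that oxidises succinate, had 134 in pool 1 and 113 in pool 2, against 65.97 in the vector library (log2 difference 0.89, SE 0.22, limma adjusted p = 0.14). SDHB, the iron-sulfur subunit, had 115 and 91.7, against 66.3 (0.62). SDHC, a membrane anchor, had 66.3 and 64.9, against 34.6 (0.90, SE 0.18, limma adjusted p = 0.10). SDHD, the other anchor, had 79.3 and 62.6, against 57.8 (0.28). The pools and the vector library did not overlap for any of the 4, but none passed the test. Among tested genes with a mean coverage above 50, 66.3% were higher in both pools and 19.5% were lower in both. All 4 transcripts of SDHC were higher in the pools, with log2 differences from 0.48 to 0.90. SDHA has 4 pseudogenes listed under its symbol in RefSeq, and how reads from such copies were assigned is not given in the sources used here.

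Complex III, the cytochrome bc1 complex, hands electrons from ubiquinol to cytochrome c. In each of the 10 genes both pools lay above the vector library. This held for 66.3% of all tested genes with a mean coverage above 50. The median log2 difference of the 10 genes was 0.55 (0.77 in pool 1, 0.37 in pool 2), and none passed the test. That median was 0.17 after the shift by genes above 50, and 0.53 when UQCRHL was left out. CYC1, the haem-bearing cytochrome c1, had 312 and 234 in the pools and 182 in the vector library (log2 difference 0.57). The large core proteins UQCRC1 and UQCRC2 had 173 and 126, against 102, and 116 and 103, against 68.0. UQCRB, a small subunit near the quinone site, had 93.4 and 87.9, against 50.7 (0.83, SE 0.17, limma adjusted p = 0.12), and UQCR10 had 248 and 196, against 118 (0.89). Of the other small subunits, UQCR11 had 224 and 140, against 124, and UQCRQ had 193 and 156, against 120.

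UQCRH, the hinge protein, had 486 and 411 in the pools and 343 in the vector library. UQCRHL, an intronless copy on chromosome 1, had 648 and 592 in the pools and 296 in the vector library, and its log2 difference of 1.06 (SE 0.24, limma adjusted p = 0.12) was the highest of the set. The annotated UQCRHL transcript is 98.6% identical to that of UQCRH over 276 aligned bases, so the coverage of the pair may be shared and the level of neither copy is certain.

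Complex IV, cytochrome c oxidase, reduces oxygen. Of the 11 subunits of general use, 9 were higher in both pools and none lower in both, with a median log2 difference of 0.34 that turned to -0.044 after the shift. The median over all 12 tested genes of the complex was 0.33, and it turned to -0.05 after the shift by genes above 50. COX7C, the most abundant, had 536 and 440 in the pools and 495 in the vector library, so that the vector value fell between the pools. COX5B had the highest log2 difference, 0.83, with 503 and 363, against 240. NDUFA4 was next at 0.80, with 289 and 230, against 148. COX4I1, which carries a regulatory nucleotide site, had 409 and 348, against 327 (0.21), and COX5A, the lowest in coverage of the 11, had 141 and 126, against 103 (0.37). COX6A1 had 527 and 385, against 296 (0.60, limma adjusted p = 0.33, short of the threshold). COX8A had 309 and 201, against 217, with the vector library between the pools, and COX6C had 178 and 156, against 136 (0.30). Coverage spanned 3.67-fold over the 11 subunits in the pools, the narrowest range after complex II.

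Subunit isoforms known from muscle, lung, testis or hypoxic cells were at or near 0 in the pools. COX7A1, the heart and muscle form of subunit VIIa, had 1.07 in pool 1 and 0.54 in pool 2, against 7.56 in the vector library. It fell, and the COX7A1 log2 difference was -2.26 (SE 0.25, lower in 2 of 2 pools, limma adjusted p = 0.039). It passed the filter only through its vector value, so a difference was built into its selection. Its call was lost with no filter (limma adjusted p = 0.073), with quantile normalization (limma adjusted p = 0.15) and with no variance trend (limma adjusted p = 0.10), over a range from 4.44e-13 to 0.15 in all alternatives with a limma adjusted p. COX7A2, the general form, had 190 and 180 in the pools and 139 in the vector library. COX6A2 was listed at 0 in both pools and had 4.40 in the vector library, where its general partner COX6A1 had 296. COX6B2 had 0.50 and 0.89, against 1.15, beside COX6B1 with 228 and 210, against 173. NDUFA4L2, induced by hypoxia in many cells, had 0.89 and 0.64, against 2.45. COX4I2, COX7B2 and COX8C were listed at 0 in all 3 libraries, while COX4I1, COX7B and COX8A had from 181.002 to 408.543.

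The 4 muscle markers MYH7, CKM, ACTA1 and MB summed to 0.78 in pool 1 and 0.94 in pool 2, against 44.6 in the vector library. MYH7, the marker of slow muscle fibres, was at 0 in all 3 libraries. The vector value of COX7A1 was the same as that of CHI3L2, and that of COX6A2 the same as that of GABRA2, all digits included. Such ties were not particular to these isoforms, since NDUFA5, NDUFS4, NDUFS8, COX6B2 and ATP5S also shared a vector value with another gene. How often ties occur over all genes was not counted. The part of either observation in the COX7A1 result was not tested.

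**Figure D4:**
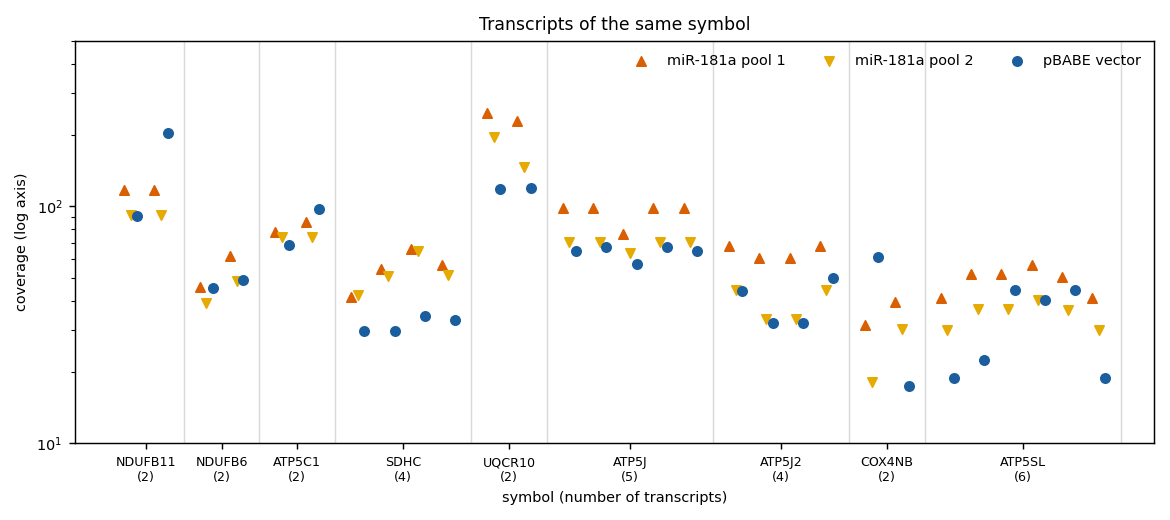
Coverage (vertical axis, log scale) of every transcript of 9 symbols with more than 1 transcript, triangles for the miR-181a pools and circles for the vector library. The 2 NDUFB11 transcripts have the same pool values and vector values of 91.0 and 203; all 4 SDHC transcripts have the circle below both triangles.

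Complex V, the ATP synthase, had the widest span of levels in the pools, 18.9-fold without the copy ATP5L2, against 12.3-fold in the vector library. Its 16 genes had a median log2 difference of 0.29 (0.44 in pool 1, 0.13 in pool 2), which turned to -0.09 after the shift by genes above 50. Both pools were above the vector library in 9 genes and below it in 3. The catalytic beta subunit ATP5B (chromosome 12, 57031959 to 57039768 on GRCh37) had the highest coverage of the whole set, with 1113 and 1013 in the pools and 613 in the vector library (0.79, SE 0.30, limma adjusted p = 0.23). The alpha subunit ATP5A1, which alternates with beta in the head, had 456 and 400, against 264 (0.69). ATP5O, which joins the head to the peripheral stalk, had 199 and 194, against 126 (0.64, limma adjusted p = 0.16). ATP5H, a stalk subunit, had 261 and 218, against 156 (0.61).

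The 3 genes lower in both pools were ATP5F1, ATP5L and ATP5C1, and none passed the test. ATP5F1, subunit b of the stalk, had 147 and 99.5 in the pools and 160 in the vector library (log2 difference -0.40, limma adjusted p = 0.50). ATP5L, subunit g of the membrane part, had 130 and 101, against 144 (-0.32). ATP5C1, the rotating gamma subunit, had 85.6 and 74.1, against 97.8 (-0.29), but its other transcript had 78.0 and 74.1, against 68.6, and so was higher in both pools. ATP5D, the delta subunit of the rotor, had 127 and 71.7, against 95.5, with the vector library between pools that lay 0.81 log2 units apart.

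Subunit c, the proton-carrying ring, is coded by ATP5G1, ATP5G2 and ATP5G3, whose mature proteins are identical. ATP5G3 had the most coverage, with 172 and 145 in the pools and 126 in the vector library, followed by ATP5G2 with 121 and 96.4, against 99.9, and ATP5G1 with 108 and 86.1, against 75.02. In sum the 3 genes had 400 and 328 in the pools and 301 in the vector library. ATP5J2, subunit f, had the lowest pool mean of complex V apart from the copy ATP5L2, with 68.2 and 44.2, against 49.9. ATP5J, the coupling factor of the stalk, had 98.7 and 70.6, against 67.6, and ATP5I, subunit e, had 76.8 and 70.0, against 60.2. ATP5L2, a copy 92.7% identical to ATP5L over 477 aligned bases, had 3.67 and 3.36, against 3.45.

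The 4 symbols that match the pattern without coding for a subunit were divided. COX7A2L, which helps join complexes into supercomplexes, had 182 and 153 in the pools and 136 in the vector library. ATP5S, now named DMAC2L, had 5.04 and 6.53, against 15.0. COX4NB, which is a neighbour of COX4I1 and now named EMC8 for its role in the endoplasmic reticulum, had 31.6 and 18.1, against 61.1. Its other transcript had 39.4 and 30.5, against 17.5, so its direction depended on the transcript. ATP5SL, now named DMAC2, had 56.4 and 40.4, against 40.3, and its 6 transcripts had log2 differences from -0.04 to 0.92. In all, 21 symbols of the set had several transcripts, and in 5 of these the transcripts differed in direction.

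The order of the genes by coverage was nearly the same in the pools. Over the 81 tested genes Spearman's rho was 0.98 between pool 1 and pool 2, 0.89 between pool 1 and the vector library and 0.88 between pool 2 and the vector library. Leaving out NDUFS1 and NDUFB11, chosen after their values were seen, gave 0.95 between pool 1 and the vector library and 0.94 between pool 2 and the vector library. These describe levels across genes, which are not independent and share a library. Pool 2 had less coverage than pool 1 in 78 of the 81 genes, where 77.2% of all tested genes and 92.4% of those above 50 did, by a median of -0.32 log2 units (pool 2 minus pool 1).

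Shares of coverage within a library need no common scale, but they depend on what else the library covers. The vector sum includes transcripts that were listed at 0 in both pools, and the part of these in the shares was not tested. The set held 2.59% of the coverage summed over genes in pool 1 and 2.68% in pool 2, against 1.86% in the vector library. With the transcript chosen by the pool mean these were 2.59% and 2.67%, against 1.98%. Over genes with a mean coverage above 50 it held 3.55% and 3.64%, against 2.90%. Each of the 5 complexes had a larger share in both pools than in the vector library. Complex III held 0.444% and 0.460% in the pools and 0.264% in the vector library, and complex I held 0.818% and 0.835%, against 0.644%. The pools lay closer to each other than to the vector library for each complex, and no test of the shares was run.

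**Figure D5:**
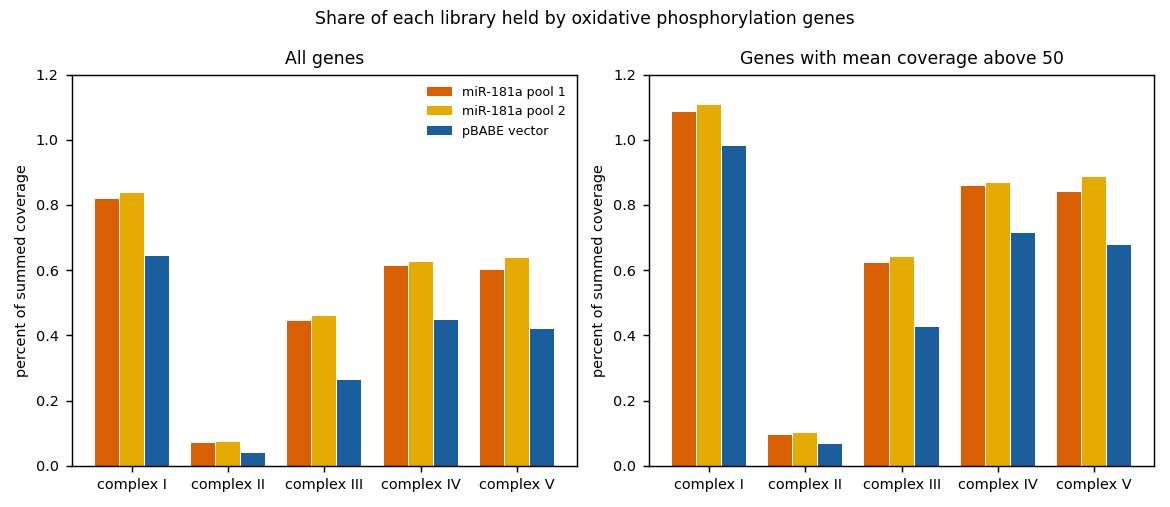
Percent of summed coverage held by each complex (vertical axis) in miR-181a pool 1, miR-181a pool 2 and the pBABE vector library, over all genes (left) and over genes with a mean coverage above 50 (right). The vector bar is the shortest of each trio in both panels; for complex III it stands at 0.264% on the left.

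Assembly factors, which insert cofactors and join subunits, stood on both sides of the vector library. Of 31 measured assembly factors and carriers, 12 were higher and 10 lower in both pools, where 44.6% and 41.8% of all tested genes were. The median log2 difference of the 31 was 0.02 (-0.36 after the shift). Of these genes 1 fell and none rose, where 21.7% of all tested genes fell and 1% rose. The gene that fell was ATPAF1, an assembly factor for the ATP synthase head, with 8.68 and 10.9 in the pools and 68.1 in the vector library (log2 difference -2.69, limma adjusted p = 0.041). LYRM7, which helps insert the Rieske protein into complex III, had the highest difference at 1.12, with 6.95 and 4.79, against 2.11. Cytochrome c itself, CYCS, had 247 and 236, against 150 (0.69, limma adjusted p = 0.16).

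Regulators of mitochondrial gene expression also stood on both sides. Of 16 measured, 8 were higher and 6 lower in both pools, where 44.6% and 41.8% of all tested genes were. Their median was 0.22 and turned to -0.16 after the shift. Of the 16, 1 fell and none rose, where 21.7% of all tested genes fell and 1% rose. PPARGC1A, a coactivator of mitochondrial biogenesis, was listed at 0 in both pools and had 29.7 in the vector library (limma adjusted p = 8.78e-06), a fall that the filter fixed since the gene passed it only through its vector value. NRF1, a transcription factor for many subunit genes, had the highest difference at 0.74, with 15.9 and 9.90, against 7.12 (limma adjusted p = 0.37). TFAM, which packages and transcribes mitochondrial DNA, had 31.4 and 28.2, against 39.3. Of 19 enzymes of the citric acid cycle and pyruvate entry, 13 were higher and 2 lower in both pools, beside the same 44.6% and 41.8%. The enzymes had a median of 0.29 that turned to -0.091 after the shift, and none passed the test. IDH3B, a subunit of isocitrate dehydrogenase, led with 122 and 80.6, against 46.2 (1.08), and DLAT, a core enzyme of the pyruvate dehydrogenase complex, was lowest with 41.3 and 41.2, against 61.6 (-0.57).

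The promoters of the set were read for motifs of 3 factors known to act on these genes, in RefSeq windows from 250 bases before to 50 after the gene start (GRCh38.p14, 70 of 88 genes matched), on both strands. The NRF1 motif GCATGCG was found in 13 of 70 (18.6%), where 6.32% of 10243 promoters of tested genes and 3.91% of all 35116 promoters held it. The ETS motif CCGGAAG, bound by GABPA, was in 20 (28.6%), against 18.7% of tested genes and 10.3% of all. The YY1 motif AAGATGG was in 16 (22.9%), against 7.51% and 5.84%. The last 3 letters of CCGGAAG are the first 3 of AAGATGG, so 1 stretch can hold both, and GCATGCG overlaps its own reverse complement. At least 1 of the 3 was in 37 of 70 (52.9%), against 28.8% and 18.3%. The 36 tested genes with a motif had a median log2 difference of 0.32 and the 28 without one had a median of 0.34. A few windows are shown with the motif in capitals, for genes of complexes I to IV whose values are given above.
SDHB, NRF1, chr1:17054215-17054243, minus strand: aagccaaatggGCATGCGccgctactgcg
SDHD, NRF1, chr11:112086754-112086782, plus strand: gctgtgtttgcGCATGCGcgacgggtgtg
COX5B, NRF1, chr2:97645915-97645943, plus strand: ggcagagctggGCATGCGcaatttccgcc
NDUFS1, ETS on the opposite strand, chr2:206159584-206159612, minus strand: ggctggggccaCTTCCGGcggaactgcgg
UQCRQ, ETS, chr5:132866577-132866605, plus strand: aatggtatctcCCGGAAGttacctcacga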

How the data were processed

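Polyadenylated RNA of 2 miR-181a libraries and 1 vector library was sequenced. The authors used hg19 and, per the labels' protocols, took as coverage the median of a density profile in 50 bp windows over each gene, and log transformation and quantile normalization followed. The deposited coverage values are linear and their sums differ between libraries, so they were used as a signal and not as counts. The aligner is not given in the sources used here.

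Cells of 54 transcripts whose symbols had turned into dates were read back as gene symbols, and 308 transcripts with a blank vector value were left out. Each symbol was represented by the transcript with the highest mean over the 3 libraries. Genes above the lowest 25% of mean coverage, among those not at 0 in all libraries, were fitted with limma 3.58.1 (R 4.3.3) on log2(coverage + 1) with a variance trend. P-values are two-sided and adjusted by Benjamini-Hochberg over 12552 genes, at 0.05. A fold change on this scale understates the change of low genes. The fit leaves 1 residual degree of freedom and assumes that the lone vector library varies as the pools do. The same steps were tested on simulated data, with all 3 libraries drawn from the levels and spread of the pools and set differences put into the vector library. The simulation left out the unequal vector values of transcripts identical in the pools, so it cannot say how the calls behave with them.

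Loci, 3' untranslated regions and copies came from GENCODE 44 (GRCh37), and miRNA and promoter sequences from RefSeq (GRCh38.p14). The members and lists were chosen with earlier results of these data known. Values were given for genes past the test, for each complex's highest and lowest in coverage and in difference, for complex II, CYC1, isoform pairs and untested genes; the others were added after their values were seen. Filters, scalings, pseudocounts, transcript choice, variance model and leaving out a pool were varied. The values of 1 gene of the set are not reported here, though the counts and medians include it.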

Additional observations from a re-analysis of the deposited data

How the results depend on the processing

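With 1 vector library, all values rest on that library and no setting can leave it out; without 1 pool the fit has 0 residual degrees of freedom, so counts of calls could not be had. No paired analysis was possible because the groups share fewer than 2 replicate numbers. The cause of the changes below was not tested. Genes of the set that rose, 0 in the main analysis, numbered 1 with no filter (1.35% of all genes tested), 1 with genes above 0 in both pools (4.13%), 68 with library medians set equal (50.6%), 29 with quantile normalization (44.9%), 11 after the shift by genes above 50 (8.28%) and 2 with no variance trend (1.28%). Genes that fell, 2 in the main analysis, numbered 4 with genes above 0 in both pools (16.9%), 5 with medians set equal (29.5%), 14 after the shift (42.9%) and 1 with no variance trend (19.2%). Setting medians equal moved the median log2 difference to 0.77 for the set and to 0.80, 1.18, 0.97, 0.74 and 0.71 for complexes I to V, and the shift by genes above 50 moved it to -0.023 for the set and to 0.0018, 0.38, 0.17, -0.053 and -0.091. The median of all tested genes was 0.49 with medians set equal, 0.48 with quantile normalization and -0.31 after the shift, against 0.07. With no filter complex IV had a median of 0.20. Without 1 pool the medians ran from 0.20 to 0.50 for the set, 0.16 to 0.51 for complex I, 0.62 to 0.85 for complex II, 0.37 to 0.77 for complex III, 0.27 to 0.42 for complex IV and 0.13 to 0.44 for complex V. The set's share over genes above 50 was 3.55% and 3.64% in the pools and 2.90% in the vector library, and its vector share was 2.01% with the mean over transcripts and 1.98% with the transcript chosen by the pool mean, ties going to the first RefSeq identifier. Setting medians equal turned NDUFS3 to 0.39, NDUFS6 to 0.38, COX7C to 0.39 and ATP5D to 0.41.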
